A study of Volvox carteri with 12 samples.

Results

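Somatic cells of the green alga Volvox carteri that had received ultraviolet B light (UV-B) were compared with somatic cells kept in white light, replicate by replicate. The comparison used 6 of the 12 libraries of the study. These were UV-B somatic A, B and C and white-light somatic A, B and C, described by the submitters as 3 biological replicates of each treatment and cell type. Gene rows of the 6 tables were linked by position at an overlap of 80% or more of the longer row, and a set with exactly 1 row per table was kept. Rows could be linked through a row of another table, so 2 rows of a set may overlap by less. Of 176433 gene rows this gave 12029 linked sets, of which 8239 reached 1 FPKM in at least 3 tables and were tested as loci. FPKM is a fragment number divided by transcript length and by the mapped fragments of the library.

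All groups were the wild-type strain Eve10, sampled after maturation and before embryogenesis, and grown at 28 °C under a day of 16 h light and 8 h dark, with photosynthetically active light near 100 µmol per square metre per second. The UV-B somatic group was irradiated for 1 h at 0.056 mW per square cm with a narrowband lamp, and the white-light somatic group was not. The other 6 libraries were UV-B gonidia and white-light gonidia of the same strain and were used only to describe how a locus divides between the cell types. UV-B gonidia A had every reference gene at 0 and was not used, so 2 UV-B and 3 white-light gonidia libraries remained.

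A Volvox spheroid is built of many small somatic cells with flagella, which do not divide, and a few large reproductive cells, the gonidia, each of which develops into a new spheroid. Somatic fate is kept by a repressor, regA, that holds down reproductive functions. In green algae and plants UV-B is sensed by the receptor UVR8, which acts through COP1, and the response known from Chlamydomonas includes photoprotection, pigment synthesis and DNA repair by photolyases. None of the 2365 reference IDs among the loci was found in the 14334 genes of the RefSeq table, so no locus could be assigned to these pathways. For the same reason the cell type could not be checked on named markers such as regA. Loci are therefore given by reference ID, scaffold and position as in the deposited tables, and by their cell type ratio; the genome build is not given in the sources used here.

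The confidence limits of the tables imply 14640000 to 24890000 fragments in the UV-B libraries and 18660000 to 25260000 in the white-light libraries. In many assembled rows these limits are wider than counting error, so the totals are not sequencing depths. Rows under 200 bp held 61.1% to 66.9% of the FPKM sum in UV-B libraries and 55.6% to 80.1% in white-light libraries. White light B stood apart with the largest number of rows, 33381 against 27527 to 29989 in the other 5. On the first principal component, with 36.6% of the variance, UV-B B at 37.7 and white light B at 28.4 lay away from the other 4 libraries, at −26.4 to −6.7. The second component, with 22.8%, placed the UV-B libraries at −29 to −7.5 and the white-light libraries at 0.2 to 25.1. Changes were fitted within letters.

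Loci that were much more abundant in somatic cells than in gonidia were mostly lower under UV-B. Of the 8239 loci, 6355 were also linked in the gonidia tables, and they were divided by the log2 ratio of their mean somatic to their mean gonidial level, taken on FPKM + 1. In 270 loci this ratio was 3 or more, that is, at least 8-fold. In this set 8 loci were higher and 145, or 53.7%, were lower under UV-B with confidence intervals that did not overlap in any of the 3 pairs. Over all 6355 loci the same count was 459 higher, or 7.22%, and 519 lower, or 8.17%. The median log2 change of the 270 loci was −0.27, against 0.03 over all 6355.

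Every pair showed this lower median. It was −0.25 in pair A, −0.30 in pair B and −0.29 in pair C, against 0.03, 0.03 and 0.01 over all loci. The changes were small and spread over the set. The middle 80% of the 270 loci, from the 10th to the 90th percentile, ran from −0.63 to 0.06, and 7 loci were lower by 2-fold or more. In 185 of the 270 loci all 3 pairs were lower and in 11 all were higher. By limma 139 were lower and 7 higher at an unadjusted p under 0.05, against 532 (8.37%) and 576 (9.06%) of the 6355 loci, and none of the 270 passed the adjusted threshold of 0.05, which 1 of all 8239 loci, or 0.0121%, did.

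The share of lower loci was smaller at smaller ratios. Of the 1282 loci with a log2 ratio from 1 to 3, 63 were higher and 232, or 18.1%, were lower, with a median of −0.10. Among the 3440 loci at similar level in both cell types, from −1 to 1, 304 were higher and 104 lower, with a median of 0.07. The 1186 loci from −3 to −1 had 81 higher and 32 lower with a median of 0.06. In the 177 loci more than 8-fold higher in gonidia, 3 were higher and 6 lower, and the median was −0.03. Without scaling and with quantile normalization the medians were −0.24 and −0.24 at ratios of 3 or more, 0.10 and 0.04 from −1 to 1, 0.09 and 0.00 from −3 to −1, and −0.01 and −0.09 below −3. The limit of 3 cuts a gradual scale, since 90 loci from 3 to 3.2 had a median of −0.29 and 62 loci from 2.8 to 3 had −0.30.

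**Figure D1:**
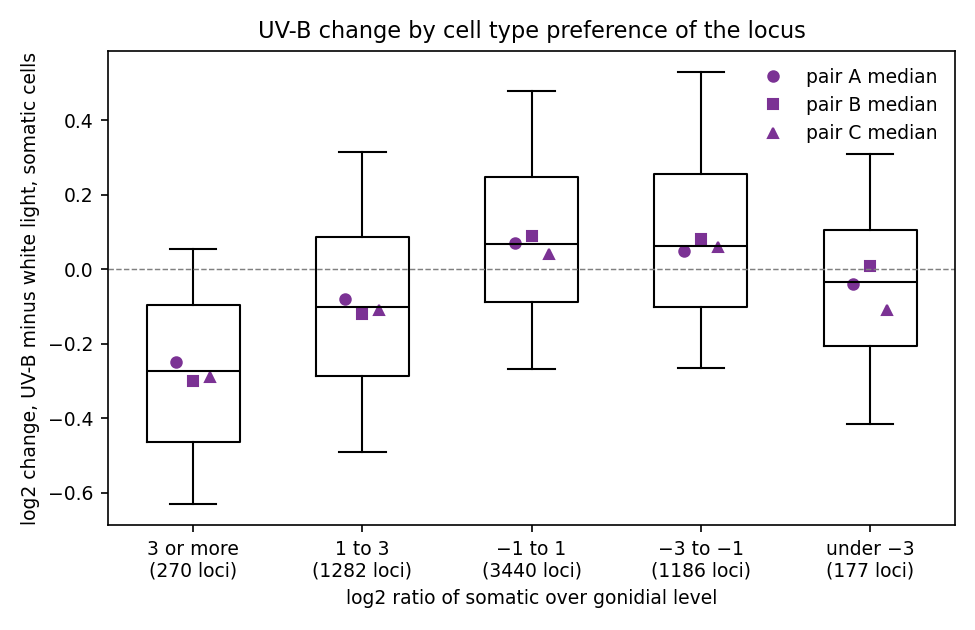
Log2 change of somatic cells (UV-B minus white light, limma estimate on FPKM + 1) for 6355 loci grouped by the log2 ratio of somatic over gonidial level. Boxes span the quartiles with the median as a line, whiskers the 10th to 90th percentile, and purple symbols are the medians of pairs A, B and C; all 3 symbols of the most somatic group lie between −0.30 and −0.25.

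The shares were similar among abundant loci and among loci with undivided rows. In the highest of 4 equal classes of level, from 29.3 FPKM upwards, 118 of 220 loci of the most somatic group, or 53.6%, were lower. Among those with rows that no other row covered by more than 10% and whose ends agreed by at least 95%, 83 of 146 were lower and 3 higher. Among those whose limits scaled with their values within 1.25 times over the 6 libraries, 22 of 48 were lower and 3 higher. Over all 8239 loci the lower share was 17.9% in the highest class of level. It was 10.5% with undivided rows and 5.87% with limits that scaled. Lower loci were thus more common at high level, where 220 of the 270 most somatic loci lay, and the 17.9% includes those loci. Within the highest class, 116 of 479 loci with a ratio from 1 to 3, or 24.2%, were lower and 32 higher. From −1 to 1, 34 of 745, or 4.56%, were lower and 94 higher. From −3 to −1, 22 of 153, or 14.4%, were lower and 11 higher.

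A ratio that includes white-light values can favour loci that are high there by chance, so the somatic loci were also chosen in each light alone. A somatic locus was taken as one with at least 20 FPKM in every somatic library of that light and more than 5 times any gonidia library of it. Chosen on white-light libraries, 200 somatic loci had median levels of 71.6, 57.5 and 61.7 FPKM in UV-B A, B and C, against 94.6, 89.6 and 86 FPKM in white light A, B and C. Of these, 119 were lower and 6 higher. Chosen on UV-B libraries, which tilts the choice the other way, 73 somatic loci had medians of 77.2, 74.1 and 74.4 FPKM under UV-B, against 99.2, 103 and 88.6 FPKM in white light. Of these, 27 were lower, or 37%, and 6 higher. The median log2 change was −0.32 for the first choice and −0.14 for the second. The first choice favours lower values under UV-B in advance, so its counts are no independent check. In the second choice all 3 UV-B medians lay below all 3 white-light medians. Chosen on all 11 libraries, 38 somatic loci had 10 lower, or 26.3%, and 3 higher, with a median of −0.07 and pair medians of −0.10, −0.12 and −0.05.

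Gonidial loci in the somatic libraries gave sums whose order between the lights depended on how the loci were chosen. Chosen the same way on white-light libraries, 146 gonidial loci summed to 2941, 2388 and 2727 FPKM in UV-B somatic libraries and to 2641, 1687 and 2083 FPKM in white-light somatic libraries. Of these, 10 were higher, or 6.85%, and 3 lower, or 2.05%, against 7.22% and 8.17% of all 6355 loci. Chosen on UV-B libraries, 157 summed to 2498, 1480 and 1796 FPKM under UV-B, against 2853, 1685 and 1977 FPKM in white light, the opposite order of sums in every pair. Of these, 4 were higher and 4 lower, or 2.55% each. The choice asks for low values in the somatic libraries of its own light, which favours higher values in the other light in advance. The white-light and UV-B lists therefore give no direction. Chosen on all 11 libraries, 114 summed to 2028, 1104 and 1458 FPKM under UV-B, against 2097, 1183 and 1566 FPKM in white light. Of these, 3 were higher and 3 lower, and the median log2 change was −0.01. In gonidia themselves the 270 most somatic loci had a median UV-B change of −0.08, with −0.09 in pair B and −0.07 in pair C. At low gonidial levels the added 1 shrinks log2 changes, so this median cannot be compared in size with the somatic one. D10, a named locus of this group, had 0.39 FPKM in UV-B gonidia C, against 0.749 FPKM in white-light gonidia C. Its log2 change in that pair was −0.33. Gonidia libraries differed in their signal at such loci, since the 200 somatic loci had medians of 12.1 FPKM in UV-B gonidia B and 12.2 FPKM in white-light gonidia B, against 1.81 to 3.82 FPKM in the other 3. The part of this in the gonidial values was not tested. In these bulk samples fewer cells of a type and less RNA per cell cannot be told apart.

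The 3 UV-B libraries all lay above the 3 white-light libraries in 535 of the 8239 loci, or 6.49%, and all below them in 588, or 7.14%. Named loci of the most somatic group were D1, D6, D10, D16 and D17. Of the 6 loci of lowest p on the lower side, D1 and D6 belonged to it, and the other 4 had no cell type ratio. D6 (Vocar20011502m.g.2.0, scaffold 5, 2508311 to 2512237) had a log2 cell type ratio of 3.64. It stood at 142, 115 and 126 FPKM in UV-B A, B and C, against 200, 165 and 178 FPKM in white light A, B and C. All UV-B libraries lay below all white-light libraries, the log2 change was −0.50 (SE 0.05), and the pairs gave −0.49, −0.53 and −0.49. Its limma adjusted p was 0.17, so it was not called. In gonidia it had 21.8 and 2.5 FPKM under UV-B, against 6.3, 26.3 and 3.05 FPKM in white light.

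D17 (Vocar20006036m.g.2.0, scaffold 12, 2747117 to 2750013), with the highest cell type ratio of the named loci at 3.76, had 122, 58.5 and 95.5 FPKM under UV-B, against 194, 122 and 148 FPKM in white light. Each pair was lower under UV-B, although the highest UV-B library and the lowest white-light library both read 122 FPKM. D16 (scaffold 1, 10366557 to 10367297, no reference ID, ratio 3.34) had 60.9, 47.8 and 50.8 FPKM under UV-B, against 97.6, 99.8 and 81.4 FPKM in white light, without overlap. The log2 changes were −0.78 (SE 0.11) for D17 and −0.80 (SE 0.11) for D16, both at a limma adjusted p of 0.17.

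D1 (scaffold 26, 829817 to 835208, ratio 3.43) had 78.4, 53 and 67.3 FPKM under UV-B, against 138, 98.4 and 112 FPKM in white light. Its log2 change of −0.81 (SE 0.06) had the lowest p of any locus lower under UV-B, 0.00028 unadjusted and 0.17 after adjustment by limma. Another row covered 31.9% of D1 in all UV-B tables and in white light B, and less than 1% in white light A and C. D10 (scaffold 1, 4652862 to 4658311, ratio 3.52) had 30.3, 18.6 and 21.9 FPKM under UV-B, against 51.8, 45.3 and 46.1 FPKM in white light, without overlap between the lights. D15 (Vocar20002820m.g.2.0, scaffold 2, 4373782 to 4377124), with a lower ratio of 1.5, had 215, 96.5 and 158 FPKM under UV-B, against 346, 233 and 246 FPKM in white light, also without overlap. The log2 changes of D10 and D15 were −1.01 (SE 0.12) and −0.86 (SE 0.15), at a limma adjusted p of 0.17. D10 had a fragment ratio spread of 2.3, a measure explained with H2, and in pair A more implied fragments under UV-B, 1867, than in white light, 1551.

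D9 (scaffold 9, 1004030 to 1014287, ratio 2.51) had 18.2, 11.6 and 13 FPKM under UV-B, against 44.1, 28.4 and 22.2 FPKM in white light. D12 (scaffold 105, 42556 to 49259, ratio 2.90) had 37.3, 22.9 and 23.1 FPKM under UV-B, against 64.4, 59.7 and 46.2 FPKM in white light. D11 (scaffold 1, 2574705 to 2590726, ratio 2) had 13, 5.38 and 6.77 FPKM under UV-B, against 19.2, 20.2 and 14.3 FPKM in white light. In all 3 of these loci the lights did not overlap, log2 changes lay between −1.08 and −1.03, and limma adjusted p was 0.17 to 0.22. The fragment ratio spread was 2.11 for D9, 1.43 for D12 and 3.76 for D11. D14 (scaffold 32, ratio 1.33) had log2 pair changes of −0.40, −0.79 and −0.69.

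For D2 to D5, D13 and D18 no cell type ratio could be given, because they were not linked in the gonidia tables. D2 (scaffold 9, 1710029 to 1720788) had 5.1, 5.06 and 3.05 FPKM under UV-B, against 11.9, 13.2 and 7.54 FPKM in white light. D5 (scaffold 12, 1643779 to 1655846) had 23.6, 21.1 and 20.4 FPKM under UV-B, against 38.5, 34.6 and 32.5 FPKM in white light. D18 (scaffold 440, 33 to 2016) had 30.4, 26.1 and 23.2 FPKM under UV-B, against 45.1, 44 and 35.6 FPKM in white light. None of the 3 overlapped between the lights, and their log2 changes were −1.13, −0.67 and −0.63. D3 on scaffold 14 and D4 on scaffold 2 had log2 changes of −0.61 and −0.60 (SE 0.06 each) at 50.5 to 92.8 FPKM under UV-B, against 80.2 to 141 FPKM in white light over both loci. Fragment ratio spreads, explained with H2, were 2.1 for D3 and 2.28 for D4. In D13 on scaffold 13 the log2 pair changes were −0.28, −1.83 and −1.62, with pair A apart from the others, at a limma adjusted p of 0.25.

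**Figure D2:**
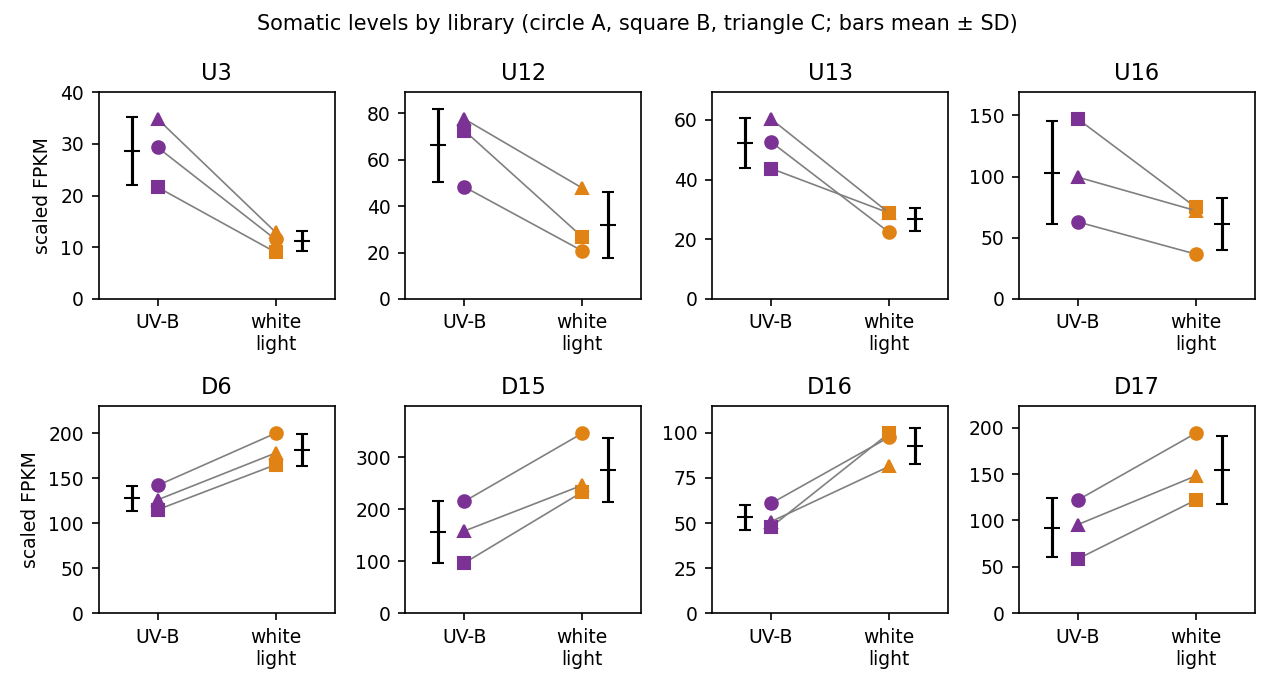
Scaled FPKM in each somatic library for 4 loci higher (top) and 4 lower (bottom) under UV-B, with UV-B on the left; lines join libraries of the same letter and bars give mean ± SD (n = 3). Every joined pair goes the same way within a locus, while at U16 the lights overlap and at D17 they meet at 122 FPKM.

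The paired limma test over all 8239 loci called 1 locus higher, or 0.0121%, and 0 lower at an adjusted p of 0.05. At an unadjusted p under 0.05 it gave 710 loci higher, or 8.62%, and 726 lower, or 8.81%. The called locus, U1 (Vocar20002813m.g.2.0, scaffold 2, 455263 to 456043), was listed at 50.1, 56.6 and 48.7 FPKM in UV-B A, B and C and at 0 in all 3 white-light libraries. Its limma adjusted p was 0.013, and its fitted difference of 5.72 (SE 0.11) on log2(FPKM + 1) depends on the added 1 and is no fold. U1 lies wholly inside a longer row that starts at 452311, which had 94.6, 84.3 and 83.2 FPKM under UV-B, against 125, 118 and 115 FPKM in white light. How fragments were divided between these rows was not tested. In gonidia U1 had 31.8 and 49.1 FPKM under UV-B, against 37.2, 29.9 and 37.1 FPKM in white light, so white-light somatic cells were the group in which it was listed at 0.

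U2 (scaffold 34, 521074 to 525819) showed the same form. It was listed at 11.9, 13.4 and 14.6 FPKM under UV-B, against 0 in white light A, B and C, with a limma adjusted p of 0.051. Its gonidial levels were 9.45 and 10.5 FPKM under UV-B, against 8.53, 10.8 and 15.3 FPKM in white light. U1 and U2 were the only loci at 0 in all 3 white-light libraries, and no locus was at 0 in all 3 UV-B libraries. Every row of the white-light somatic tables carried the status OK, so these zeros were not marked as failed estimates. Without any 1 of the letters U1 was no longer called, with limma adjusted p from 0.21 to 0.43, while its fitted difference stayed at 5.59 to 5.80.

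Confidence intervals of the lights were apart in the same direction in all 3 pairs in 534 loci higher, or 6.48%, and 671 lower, or 8.14%. Without scaling of the libraries this was 640 higher and 560 lower. Median pair changes of 2-fold or more were found in 74 of the higher and 16 of the lower loci. Over the 4 classes of level, from the lowest to the highest, the higher loci numbered 89, 131, 148 and 166, while the lower ones numbered 21, 67, 214 and 369.

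The intervals cover fragment assignment and counting within a library, and not the spread between cultures. They were apart in 44.6%, 54.9% and 48.5% of loci between the lights in pairs A, B and C. Between libraries of the same light and different letters they were apart in 48.6% to 63.8% of loci. These ranges overlapped. In 1293 loci the intervals were apart in opposite directions in different pairs, and in 1835 they were apart in no pair. Over all loci the changes of different pairs correlated weakly (Pearson r = 0.213 for A with B, 0.213 for A with C and 0.158 for B with C), as a description over loci that share libraries and scaling.

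**Figure D3:**
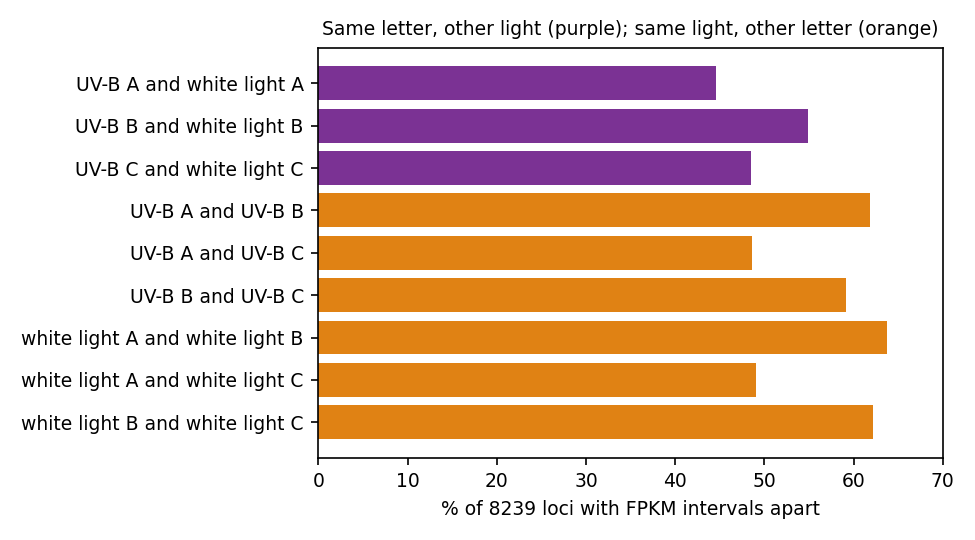
Percentage of 8239 loci whose scaled FPKM confidence intervals do not overlap between 2 libraries. The 3 purple bars compare the lights within a letter and reach 44.6% to 54.9%; the 6 orange bars compare letters within a light and reach 48.6% to 63.8%.

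A pair of loci on different scaffolds with almost the same values were among the higher loci with undivided rows. U3 (Vocar20012885m.g.2.0, scaffold 3, 934540 to 935866) had 29.3, 21.6 and 34.8 FPKM under UV-B, against 11.5, 9.02 and 12.9 FPKM in white light. U11 (Vocar20006832m.g.2.0, scaffold 72, 251045 to 252370) had 30.1, 21 and 34.9 FPKM under UV-B, against 11.4, 9.21 and 11.8 FPKM in white light. Neither overlapped between the lights, the log2 changes were 1.27 (SE 0.09) and 1.31 (SE 0.11), and limma adjusted p was 0.17 for both. Their rows are 1326 and 1325 bp long, and their gonidial levels were also alike, at 33.6 and 85.8 FPKM for U3 and 31.9 and 89 FPKM for U11 under UV-B. Whether they are copies that share reads was not tested, and they are best counted as 1 uncertain observation.

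U12 (Vocar20002546m.g.2.0, scaffold 2, 260814 to 263938) had 48.3, 72.6 and 77.6 FPKM under UV-B, against 20.7, 26.7 and 47.8 FPKM in white light, so that UV-B A and white light C nearly met. U13 (Vocar20000743m.g.2.0, scaffold 19, 615168 to 617573) had 52.6, 43.7 and 60.3 FPKM under UV-B, against 22.3, 28.8 and 28.8 FPKM in white light, without overlap. U16 (Vocar20002964m.g.2.0, scaffold 2, 3836206 to 3838835) had 62.9, 147 and 99.5 FPKM under UV-B, against 36.6, 74.8 and 72.1 FPKM in white light. The lights overlapped at U16, yet every pair was higher, at log2 0.77, 0.96 and 0.46. These 3 loci had limits that scaled with their values, and limma gave log2 changes of 1.09, 0.94 and 0.73 at an adjusted p of 0.17.

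Among the named loci above 0 in every library the largest difference was that of U4 (Vocar20005834m.g.2.0, scaffold 110, 17889 to 19213). It had 52.4, 16.8 and 60.9 FPKM under UV-B, against 5.37, 1.66 and 3.75 FPKM in white light, a log2 change of 3.17 (SE 0.22) with a limma adjusted p of 0.17. The UV-B A row of U4 began at 17583, before the others. Its gonidial levels were 17.9 and 60.6 FPKM under UV-B, against 32.9, 9.81 and 21.4 FPKM in white light. The gonidial log2 change of 1.13 (SE 0.28) was fitted from pairs B and C alone, which gave 0.80 and 1.46. U4 opened a run of 3 neighbouring loci that were all higher in every pair, though none had undivided rows. Their fragment ratio spreads, explained with H2, were 1.28, 1.38 and 1.68. Another row covered up to 50.6% of the locus from 23015. The next, from 23015, had 13.5, 42.7 and 24.4 FPKM under UV-B, against 7.84, 20.9 and 18.1 FPKM in white light, and the last (Vocar20005835m.g.2.0, from 25720) had 21.9, 55.6 and 40.9 FPKM under UV-B, against 12, 29.2 and 22.1 FPKM in white light.

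U5 (scaffold 11, 1367466 to 1371882) had 47.6, 31.6 and 38.8 FPKM under UV-B, against 14.5, 9.65 and 15.1 FPKM in white light. U6 (scaffold 1, 11172516 to 11178825) had 83.9, 36.9 and 68.3 FPKM under UV-B, against 24.2, 7.97 and 22.6 FPKM in white light. U10 (scaffold 25, 484964 to 493516) had 19.9, 16 and 29.5 FPKM under UV-B, against 6.8, 7.34 and 10.3 FPKM in white light. None of them overlapped between the lights, but the limma adjusted p of each was 0.17. At U6 another row covered 61.9% to 72.7% of the locus in 5 tables and none of it in UV-B B, where the row ended at 11177547. Rows of U6 overlapped by as little as 73%, its fragment ratio spread was 5.26, and in pair B its implied fragments were 767 under UV-B, against 999 in white light. U9 (Vocar20005997m.g.2.0) had 16.8, 28.4 and 29.4 FPKM under UV-B, against 5.26, 5.52 and 15 FPKM in white light. U7 on scaffold 22 had 16.6, 28.7 and 22 FPKM under UV-B and was listed at 0 in white light A and B and at 16.7 FPKM in white light C. At U9 the lights did not overlap, and at U7 they did. U14, U15 and U17 had log2 changes of 0.88, 0.59 and 0.51 at limma adjusted p of 0.17, 0.23 and 0.19, so none was called. The lights overlapped at U14, with 11.9 FPKM in UV-B B, against 12.5 FPKM in white light C. U17 lies wholly inside another row, and up to 30.1% of U15 was covered by one. U15 had 11.9, 14.3 and 11.9 FPKM under UV-B, against 6.53, 7.93 and 10.1 FPKM in white light.

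Runs of at least 3 neighbouring loci that were apart in the same direction in all pairs numbered 4 on the higher side, with 12 loci, and 9 on the lower side, with 28 loci. Over all 8239 loci 6.48% were apart higher and 8.14% lower. How many runs these shares alone would give was not estimated. Some runs held loci covered by another row, up to 100% of the locus. Of the higher runs, 1 on scaffold 14 (619507 to 627992) held Vocar20007594m.g.2.0, with 67.9, 26.4 and 58.7 FPKM under UV-B, against 44, 18.7 and 34.2 FPKM in white light, followed by Vocar20007652m.g.2.0 and Vocar20007601m.g.2.0. A run on scaffold 24 (614853 to 623132) held 3 lower loci without overlapping rows, the middle one at 118, 114 and 105 FPKM under UV-B, against 147, 134 and 138 FPKM in white light. A run of 4 loci on scaffold 2 (308911 to 333746) had medians of the log2 pair changes from −0.10 to −0.07, with a larger decrease in pair B. Its first locus, Vocar20002648m.g.2.0, had 853, 403 and 836 FPKM under UV-B, against 898, 566 and 891 FPKM in white light, and the other 3 followed the same course over the libraries. Whether their reads are shared was not tested. On scaffold 19, Vocar20000736m.g.2.0 was listed at 0 in UV-B A and C and at 30.4 FPKM in UV-B B, against 25.5, 40.5 and 23 FPKM in white light, inside a region covered by another row.

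The most abundant loci of at least 200 bp did not separate the lights. H1 (Vocar20008483m.g.2.0) had 9278, 6041 and 10459 FPKM under UV-B, against 8831, 6798 and 9523 FPKM in white light. H3 (Vocar20007377m.g.2.0) had 6885, 7447 and 7282 FPKM under UV-B, against 7106, 6759 and 7954 FPKM in white light. H8 (Vocar20004315m.g.2.0) had 5748, 3235 and 6930 FPKM under UV-B, against 5463, 2641 and 6590 FPKM in white light. H8 was higher in each pair with intervals apart, yet its log2 change of 0.15 (SE 0.08) had a limma adjusted p of 0.41 and the lights overlapped. Library B was the lowest of its light at H8 under UV-B and in white light. For H4 to H7 the log2 changes lay between −0.06 and 0.13, and the limma adjusted p of all 8 loci was 0.41 to 0.96.

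Some large differences came with a change in how the row was resolved. In a row whose value follows its fragments, the implied fragments per FPKM, corrected for library depth, are nearly equal in all libraries, and they were within 1.25 times in 2182 of the 8239 loci. H2 (Vocar20010723m.g.2.0, scaffold 4, 1161654 to 1164047) had 13757, 1247 and 15432 FPKM under UV-B, against 1339, 13660 and 1443 FPKM in white light. Its implied fragments ran the other way, at 1430, 15934 and 1603 under UV-B, against 19528, 1733 and 27519 in white light. The 3 libraries at high FPKM were those in which the row ended at 1164053, 1164054 or 1164048, against 1164046 in the other 3. High and low values were thus divided by the row's end, with libraries of both lights on each side.

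U8 (scaffold 2, 2452788 to 2464017) had 454, 986 and 898 FPKM under UV-B, against 202, 219 and 224 FPKM in white light. Its implied fragments were 2238, 2204 and 2263 under UV-B, against 38182, 52842 and 51171 in white light, and the rows ended at 2464018 to 2464098 in UV-B tables, against 2464017 in white-light tables. D7 (scaffold 8, 487049 to 497255) had 29.6, 138 and 28.2 FPKM under UV-B, against 148, 170 and 134 FPKM in white light, with implied fragments of 1365, 329 and 1458 under UV-B, against 390, 694 and 456 in white light. Only UV-B A and C were low at D7, and UV-B B lay within the white-light range. D8 (Vocar20014407m.g.2.0, scaffold 57, from 68557) had 11.2, 9.01 and 10.8 FPKM under UV-B, against 39.9, 24.5 and 13.3 FPKM in white light, where the row ended at 79573, 79570 and 79145. All UV-B rows of D8 ended at 79145, as in white light C, the lowest of the white-light libraries. D15, for contrast, had 20954, 7050 and 18661 implied fragments under UV-B, against 29277, 34884 and 26071 in white light, in step with its FPKM once depth is taken into account. Of the 1205 loci apart in all pairs 78% had a fragment ratio spread over 1.25 times, against 73.5% of all loci. With that limit, 137 loci were higher and 128 lower, and 6 higher and 1 lower locus differed by 2-fold or more.

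**Figure D4:**
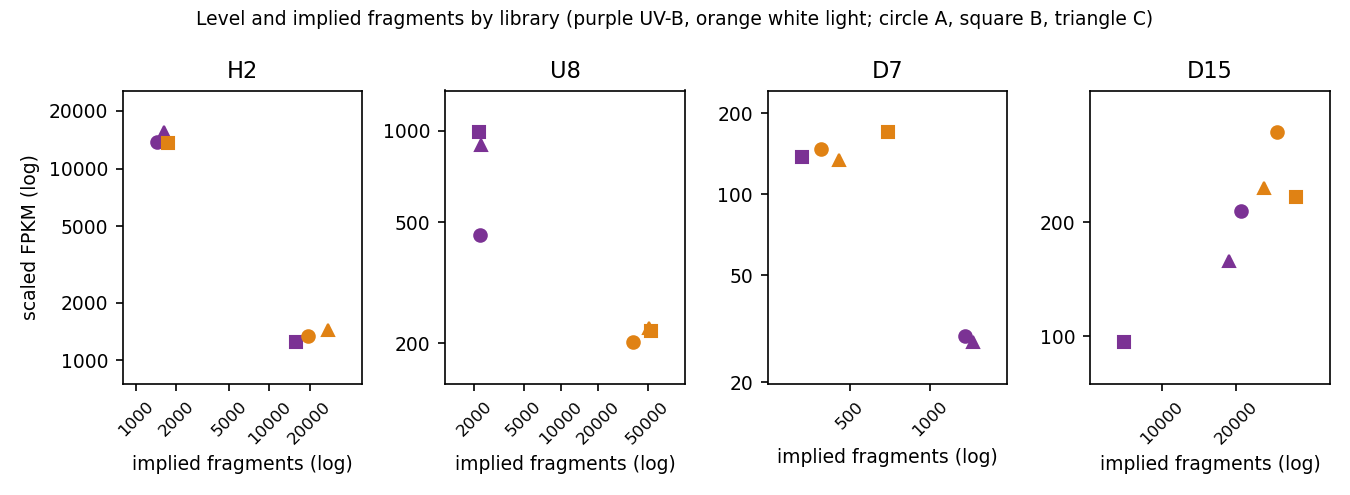
Scaled FPKM against implied fragments per library (both axes logarithmic) for 4 loci; purple is UV-B, orange is white light, and symbols give the letter. In H2, U8 and D7 the libraries of high FPKM are those of few implied fragments, whereas in D15 both go together.

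Row boundaries differed between the lights in few loci. The row was longer in every UV-B table than in every white-light table in 236 loci, or 2.86%. Of these, 33 were apart higher and 15 lower. It was shorter in 277 loci, or 3.36%, of which 17 were higher and 34 lower. Over all 8239 loci the shares were 6.48% higher and 8.14% lower. Whether row length played a part was not tested. No set of rows present in all 3 UV-B tables lacked any row in the white-light tables. There were 4 sets of the converse kind. Their mean levels over the 3 white-light libraries had a median of 4.13 FPKM and a maximum of 6.07 FPKM.

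The response was set against that of gonidia in a fit of 11 libraries and 7555 loci. White-light gonidia A had no UV-B partner, so the gonidial changes of this fit rest on pairs B and C alone. The somatic minus gonidial difference passed an adjusted p of 0.05 by limma in 3 loci, or 0.0397%, with a larger value in somatic cells in each. These were U1, with a difference of 5.49 (SE 0.15, adjusted p 0.0033), U2, with 4.19 (SE 0.20, adjusted p 0.023), and a locus on scaffold 1 (10666657 to 10684274), with 3.69 (adjusted p 0.035). None of the 3 was called without any 1 of the letters or without the gonidia B libraries. The scaffold 1 locus had 16.7, 26 and 28 FPKM in UV-B somatic cells and 17.1, 20.6 and 24.1 FPKM in white-light somatic cells, against 2.48 and 2.03 FPKM in UV-B gonidia and 34.4, 32.8 and 40.4 FPKM in white-light gonidia. Its log2 change was 0.17 in somatic cells and −3.53 in gonidia. U3 and U11, higher in somatic cells by log2 1.20 and 1.23 in this fit, had changes of 0.19 (SE 0.10) and 0.15 (SE 0.12) in gonidia, and the differences did not pass (limma adjusted p 0.31 and 0.32).

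**Figure D5:**
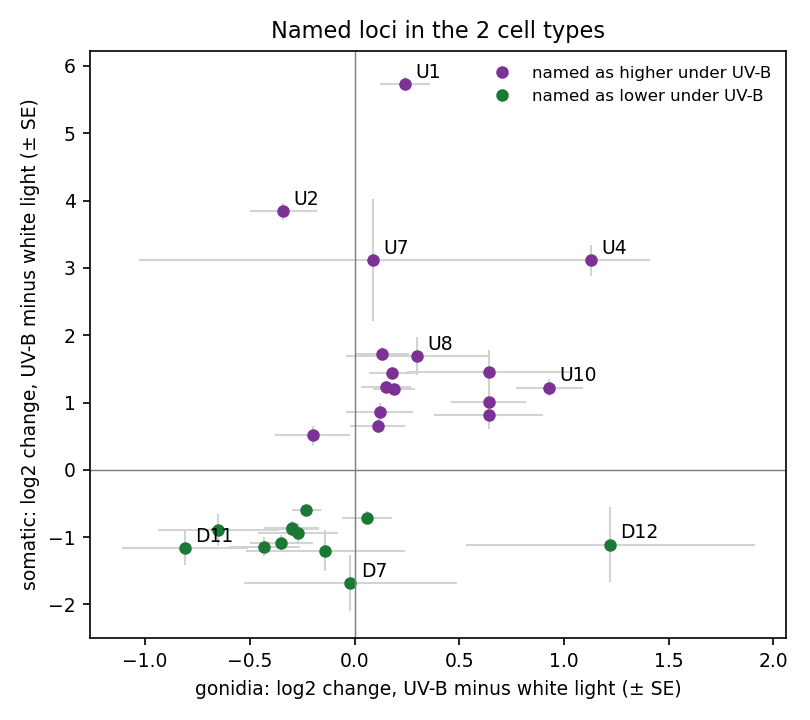
Log2 change under UV-B in gonidia (horizontal) and in somatic cells (vertical) with standard errors from the 11-library limma fit, for the named loci linked in both. Gonidial changes rest on pairs B and C. U1 and U2 stand at 5.73 and 3.84 in somatic cells with gonidial changes of 0.24 and −0.34; U4 and U10 are positive in both cell types.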

How the data were processed

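PolyA RNA of 6 somatic libraries was compared. The authors' gene tables hold FPKM with 95% confidence limits, per the file headers; per the submitters' processing notes the tools were TopHat2 (version 2), Cufflinks (2.0.1) and Cuffdiff (2). Build and annotation: not given in the sources used here. Rows were linked by position, since IDs of assembled genes differ between tables. FPKM and limits were divided by median-of-ratios factors over loci above 1 FPKM in all 6 libraries. The values log2(FPKM + 1), on which folds of low loci are understated, were fitted with limma 3.58.1 (R 4.3.3; empirical Bayes with trend) with light and letter as terms, with Benjamini-Hochberg adjustment over 8239 loci and a threshold of 0.05. Intervals were called apart where the scaled deposited limits did not overlap. Implied fragments are the squared ratio of FPKM to its SD, taken as the distance to the upper limit divided by 2. They were whole numbers, to within 0.05, in 86% to 88.9% of reference rows with fewer than 20. In many assembled rows the limits are wider than counting error, and there implied fragments are not fragment numbers. The fits were run on simulated data, with limits set on the mean estimate and, for the difference fit, on the loci recovered. No limit was set on false calls or on the loci recovered by the paired fit. Linking used Python 3.11.15.

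Letters pair the libraries by the data: the departures of the UV-B and the white-light library of a letter from their group means had a correlation of 0.386 (A), 0.462 (B) and 0.222 (C). Labels do not say what a letter shares.

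Named loci were U1, as called; the 6 of lowest p in each direction; the 6 of largest median change in each direction with intervals apart in all pairs, at least 10 FPKM in every library of the higher light and undivided rows; and the 8 most abundant (H1 to H8). U12 to U17 and D13 to D18, with a fragment ratio within 1.25 times, were added after values were seen, as were the grouping by cell type ratio, the lists chosen on UV-B libraries and the runs. The members and lists were chosen with earlier results of these data known. Lists of named pathway genes were not used, because no ID could be paired with a name.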

Additional observations from a re-analysis of the deposited data

Results flagged for a closer look

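The UV-B response of U1 was larger in somatic cells than in gonidia by 5.49 on log2(FPKM + 1), and that of U2 by 4.19, both by the limma test of the difference at adjusted p of 0.0033 and 0.023. Both rest on white-light somatic libraries listed at 0, and neither was called without any 1 of the letters or without the gonidia B libraries. At U15 every somatic pair was higher under UV-B (log2 0.78, 0.77 and 0.22) and both gonidia pairs were lower (−0.32 in B and −0.08 in C). The tested difference at U15 was 0.71 (SE 0.23) and did not pass, at a limma adjusted p of 0.67.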

How the results depend on the processing

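The paired test called 1 locus. The fit with no replicate block called 2, as did linking at 95% overlap and library weights. None was called with 1 FPKM in all 6 tables (653 higher and 719 lower at unadjusted p under 0.05), with undivided rows (298 and 356), with a stable fragment ratio (289 and 210) or without any letter in turn (332 to 541 and 406 to 628). Leaving out single libraries with no replicate block gave 2 to 14 calls, the most, 14, without UV-B B. The somatic minus gonidial difference, 3 loci in the main analysis, was called at 0 loci without any letter (210 to 377 higher and 210 to 571 lower unadjusted) and at 1 without the gonidia B libraries, which was none of the 3. Intervals apart in all pairs, 1205 loci, became 544 with undivided rows, 265 with a stable fragment ratio, and 1866 to 1941 with 2 pairs. The median log2 change of the most somatic loci, −0.27, was −0.24 without scaling, with quantile normalization, in the highest of the 4 level classes and with a ratio taken without the gonidia B libraries, −0.19 with a stable fragment ratio, −0.21 and −0.31 with the ratio taken in UV-B and in white-light libraries, and −0.30 to −0.25 without a letter. The lists of somatic loci of at least 20 FPKM had medians of −0.32 (chosen on white-light libraries), −0.14 (UV-B libraries) and −0.07 (all 11). Of 657 alternative values for named loci, 642 kept direction and side of the threshold, 0 reversed, 3 lost the threshold (U1 without a letter) and 12 passed it, among them U2 with no replicate block (limma adjusted p 0.00085). The 1 FPKM, undivided-row and fragment-ratio settings leave U1 itself out of the test. Causes of the other shifts were not tested. With 3 libraries a light the main test called no locus but U1, and U4, at a log2 change of 3.17, did not pass (limma adjusted p 0.17). Linking leaves out loci assembled differently between libraries.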
